A study of Homo sapiens with 10 samples.

Results

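The weakest nucleosome positions of human induced pluripotent stem cells (hiPSCs) were the 471924 autosomal positions defined by a score below 7.0, out of 12465711 on the 22 autosomes (3.79%) and 12921589 in the whole list. Undifferentiated cells of the hiPSC line PB010.5, with a FUCCI reporter that colours cells by cell cycle phase, were digested for 5 min with micrococcal nuclease (MNase) at 10 U, 6 U, 3 U, 1 U or 0.5 U, and yeast mononucleosomal DNA was added as a spike-in before library preparation. Each of the 5 digestions gave 1 library, read both in a 150-bp and in a 50-bp paired-end run, which makes 10 samples of a single line with 1 library per MNase amount. The authors deposited 1 list of positions for the pooled data, in which each entry spans 140 bp and has a score, a signal height that is never negative. The list has no replicates and no value per MNase amount, so that no p-value is given and the effect of the digestion could not be read from it. It holds no expression values with which to check the cell type.

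A nucleosome is the DNA wound around a histone octamer, and MNase cuts the linker DNA between nucleosomes while the wrapped DNA is protected. Fragments from many cells pile up where nucleosomes sit at the same place. A high score is read here as a site where many fragments pile up and a low score as a site that few fragments cover. This reading was not tested, since the scaling of the score is not given and the reads behind it are unknown. Arrays of regularly spaced nucleosomes flank active transcription start sites (TSSs) and sites bound by CTCF, a zinc finger protein that organises chromatin loops. The enzyme also cuts A/T-rich DNA more readily than G/C-rich DNA.

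Weak positions were compared with 4223925 autosomal positions of score 12 to 18 (33.9%), weighted so that both sets had the same distribution of G and C bases in the 140-bp interval. These are termed GC-matched comparison positions below, and 471907 weak positions could be matched. The spread of a difference is its SD over the 22 autosomes, each matched within itself, together with the number of autosomes that showed the same sign. Where shares of weak positions are described, the share expected from GC content is the share of weak positions among all autosomal positions with the same number of G and C bases, and a ratio of observed to expected above 1 means more weak positions than GC content alone gives. Since the score itself chose the members, every share of weak positions is a description of where low scores lie.

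The sequences of 4 weak positions show what such intervals look like across the range of scores. Each is the first position of its score value on chromosome 1 that lies over 1000 bp from any annotated gene, on GRCh38 in 1-based coordinates, forward strand, with CpG dinucleotides in capitals.
Score 0, chr1:182964467-182964606: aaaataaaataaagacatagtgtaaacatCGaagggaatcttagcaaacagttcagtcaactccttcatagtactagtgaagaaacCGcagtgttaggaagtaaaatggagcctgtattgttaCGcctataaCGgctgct
Score 1.23, chr1:38266287-38266426: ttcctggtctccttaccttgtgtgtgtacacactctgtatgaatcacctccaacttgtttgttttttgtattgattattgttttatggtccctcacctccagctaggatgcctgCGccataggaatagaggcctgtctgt
Score 3.70, chr1:2893507-2893646: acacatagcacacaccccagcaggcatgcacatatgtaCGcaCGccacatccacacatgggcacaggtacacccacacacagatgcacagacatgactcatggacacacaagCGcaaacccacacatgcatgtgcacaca
Score 6.17, chr1:878457-878596: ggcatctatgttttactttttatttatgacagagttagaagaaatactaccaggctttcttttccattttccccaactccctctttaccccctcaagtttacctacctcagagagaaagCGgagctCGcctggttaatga
The position of score 0 had 37.9% GC, 4 CpGs and neighbours of score 23.4 at 230 bp and 14.8 at 135 bp. None of the 4 occurred a second time in the genome over its central 100 bases. Each of them was lower than both of its neighbours.

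Scores rose in steps of 1.23, and weak positions were those of 0 to 5 steps. Of the weak positions, 360824 (76.5%) had 5 steps (score 6.17), 85586 (18.1%) had 4 steps, 16715 (3.54%) had 3 steps, 8169 (1.73%) had 2 steps, 554 (0.117%) had 1 step and 74 (0.0157%) had a score of 0. The other 2 weak positions lay off the steps by more than 0.01 of a step. The set was therefore mostly made of positions just under the limit. Just above it, 1398814 positions had 6 steps (score 7.40), 456889 had 7 steps and 1304771 had 8 steps, so that even numbers of steps were more frequent than their odd neighbours from 6 to 14 steps. The values on both sides of the limit were close: mean GC content was 36.6% at 5 steps and 36.6% at 6, the mean score of the neighbours was 14.1 and 13.9, and the share with no midpoint within 250 bp was 8.47% and 8.59%.

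**Figure D1:**
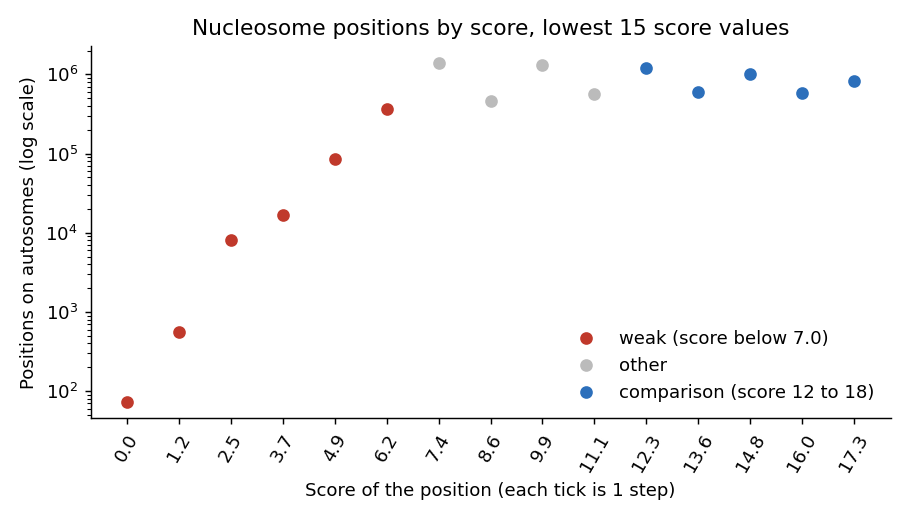
Number of autosomal positions (log scale) at each of the lowest 15 score values, with weak positions in red, comparison positions in blue and others in grey. The counts climb from 74 at a score of 0 to 360824 at 6.17 and to 1398814 at 7.40, the first value outside the weak set, after which even and odd steps alternate.

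Midpoints of weak positions lay off the common grid far more often than those of other positions. In the list, 5.64% of all autosomal midpoints were not on the 10-bp grid that holds the rest, against 22.6% of weak positions. The GC-matched comparison gave 4.25%, a difference of 18.3 percentage points (SD 0.307, 22 of 22 autosomes). The share off the grid was 75.7% at a score of 0, 77.3% at 1 step, 61.4% at 2 steps, 61.3% at 3 steps, 46.1% at 4 steps, 14.2% at 5 steps and 3.18% at 6 steps. Odd steps above the limit were also more often off the grid, with 14.1% at 7 steps against 4.57% at 8. Of the weak positions, 98.5% still lay on a 5-bp grid. Results below are given for all weak positions, and the values for the 365420 weak positions on the 10-bp grid are given where they bear on a result.

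Weak positions were poor in G and C. Their mean GC content was 36.8% against 42.9% for comparison positions before matching, a difference of -6.07 percentage points (SD 0.214, 22 of 22 autosomes). The quartiles of weak positions were 31.4%, 35.7% and 40.7%, and those of all positions 36.4%, 42.1% and 50.0%. Within the weak set, mean GC content was 36.0% at a score of 0, 36.1% at 1 step, 36.7% at 2 steps, 37.7% at 3 and at 4 steps and 36.6% at 5 steps, with no steady order.

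The share of weak positions fell steeply with GC content and rose again at the upper end. Below 25% GC, 14.1% ± 0.554 (SD over 22 autosomes) of positions were weak. The share was 7.74% ± 0.288 at 30 to 35%, 2.91% ± 0.204 at 40 to 45% and 1.22% ± 0.111 at 50 to 55%. It was lowest at 60 to 65%, with 0.807% ± 0.151, and reached 1.38% ± 0.313 at 70 to 75% and 2.08% ± 0.420 at 75% and above. The rise at the upper end was larger than the spread between autosomes and concerned 608 weak positions at 75% GC and above.

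**Figure D2:**
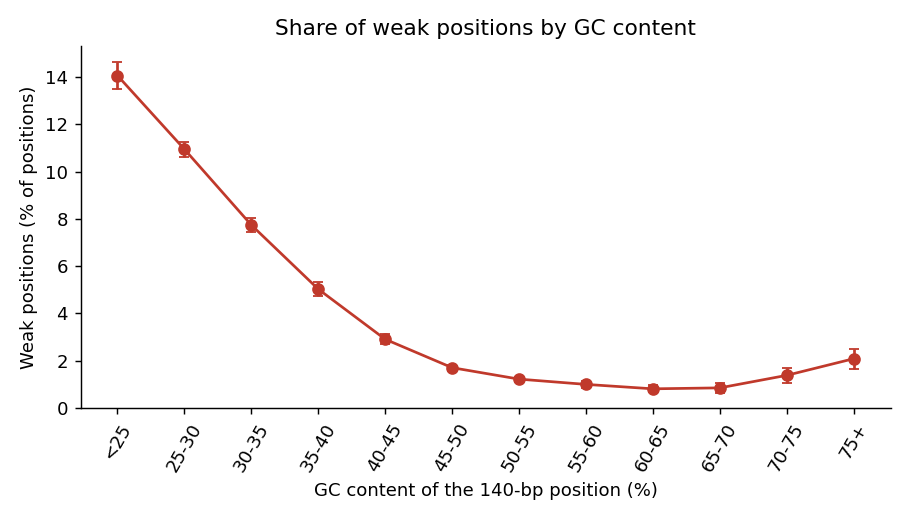
Percentage of autosomal positions that were weak, by GC content of the 140-bp interval, with the SD over 22 autosomes as bars. The share falls from 14.1% below 25% GC to 0.807% at 60 to 65% and is 2.08% at 75% and above.

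At equal GC content, weak positions held slightly more CpG dinucleotides, 0.999 per interval against 0.937 (difference 0.0620, SD 0.0314, 22 of 22 autosomes). Runs of at least 10 A or T, which stiffen DNA and are known to disfavour wrapping, were in 5.22% of weak and 5.24% of comparison positions, a difference within the spread (SD 0.463). The GC content of the 1000 bp centred on the midpoint was 38.4% and 38.5%. The central 100 bases occurred more than once in the genome for 0.248% of weak and 0.106% of comparison positions (difference 0.142, SD 0.0942, 22 of 22 autosomes), and the central 50 bases for 3.81% and 2.40%. Exact second copies of the central bases therefore involved few weak positions, and repeats with diverged sequence were not counted. 1 weak position overlapped unsequenced bases.

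The neighbours of weak positions were nearly as high as those of comparison positions. The mean score of the 2 flanking positions was 14.2 for weak and 14.5 for GC-matched comparison positions, a difference of -0.350 (SD 0.105, 22 of 22 autosomes), which is less than 1 step. The median was 13.6 in both sets. The lower neighbour had 10.9 against 11.1 and the higher neighbour 17.4 against 17.9. The difference was -0.324 for the second positions on either side, -0.264 for the fifth and -0.247 at the 10th place. The mean score 1000 to 5000 bp away was 14.7 against 15.0 (difference -0.244, SD 0.0899, 22 of 22 autosomes). Both neighbours were higher than the position itself for 92.7% of weak and 18.1% of comparison positions, which the choice by score largely fixes.

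Weak positions were mostly single. Of them, 429543 (91.0%) had no weak neighbour on either side, and the others lay in 19453 pairs, 1072 runs of 3, 61 runs of 4 and 3 runs of 5. At least 1 weak neighbour was found for 8.98% of weak and 9.08% of GC-matched comparison positions, a difference within the spread between autosomes (-0.0994, SD 0.377). Without matching on GC content the comparison share was 7.49%. The result depended on the limit: with weak positions below a score of 8, the shares were 36.2% and 33.3% (difference 2.86, SD 0.511). The 3 runs of 5 lay in the genes FAM162A, SGCD, which encodes a sarcoglycan of the muscle membrane complex, and MAMDC2, over 720, 1170 and 735 bp with 31.9, 33.3 and 37.9% GC. In classes of neighbours, 35.4% of weak positions lay between 2 positions of score 12 or more (comparison 37.5%), 45.2% had such a neighbour on a single side (45.1%) and 19.4% had none (17.4%). Those between high neighbours had 39.0% GC and those without had 34.5%.

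The regions around weak positions covered the whole range of local scores. In the 10% of positions with the lowest local score, 6.01% ± 0.268 (SD over 22 autosomes) were weak, 1.16 times the share expected from GC content. In the 10% with the highest local score, 1.47% ± 0.163 were weak, 0.849 times the expected share. These ratios ran from 1.16 through 1.07, 1.03, 1.00, 0.975, 0.953, 0.918, 0.918 and 0.888 to 0.849 over the 10 classes of local score.

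The distance to the nearest other midpoint set weak positions apart from comparison positions. The medians were close, 145 against 150 bp, but the distributions differed in shape. GC-matched comparison positions had a shoulder at the usual spacing of nucleosomes, with 20.0% of nearest midpoints at 180 to 220 bp, and weak positions had 14.8% there (difference -5.16, SD 0.508, 22 of 22 autosomes). The gap was smaller without matching, with 17.0% for comparison positions and 17.4% for all positions. Relative to the matched set, weak positions were correspondingly more frequent at shorter and at longer distances. Relative to the share expected from GC content, the ratio was 1.08 at 100 to 140 bp, 1.00 at 140 to 180 bp, 0.782 at 180 to 220 bp, 1.12 at 300 to 400 bp, 1.25 at 400 to 600 bp and 1.48 at 600 to 1000 bp. On the 10-bp grid alone these ratios were 1.14, 0.947, 0.759, 1.10, 1.25 and 1.56. At 1000 bp and above the ratio was 1.84, with 6.54% of 5950 positions weak. Of the 380 weak positions with no other midpoint within 1000 bp, 4.47% had repeated central 100 bases.

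**Figure D3:**
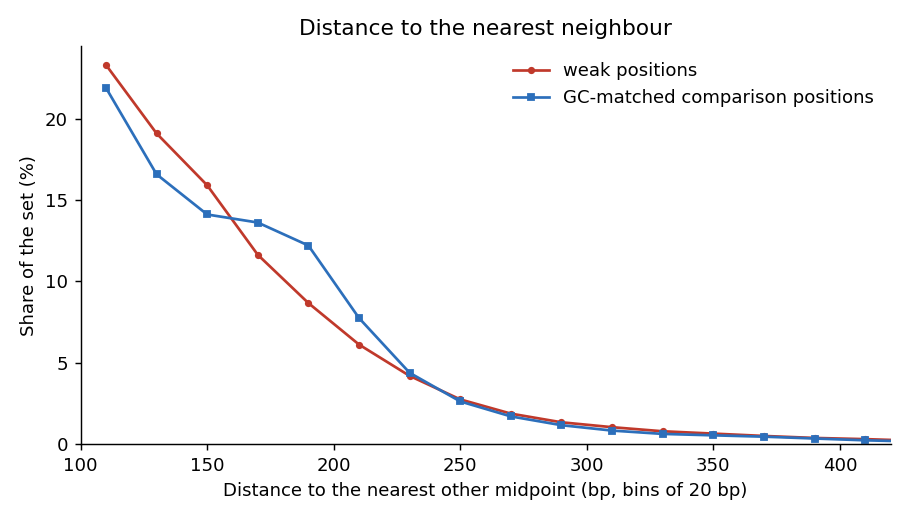
Share of weak positions (red) and of GC-matched comparison positions (blue) by distance to the nearest other midpoint, in bins of 20 bp. At 180 to 220 bp the comparison set has 20.0% of its positions and the weak set 14.8%.

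At equal GC content, overlap with a neighbour was more frequent among weak than among comparison positions, but it was not particular to the weak set. A neighbour closer than 140 bp, whose interval shares bases, was present for 42.4% of weak and 38.5% of GC-matched comparison positions (difference 3.92, SD 0.823, 22 of 22 autosomes). Without matching on GC content the direction turned, with 45.4% of comparison positions and 44.3% of all positions. Just above the limit, 44.4% of positions at 6 steps and 46.7% at 7 steps overlapped a neighbour. Both neighbours overlapped 8.57% and 9.47% of these. Both neighbours overlapped 8.87% of weak and 5.65% of comparison positions (difference 3.21, SD 0.704, 22 of 22 autosomes). For 7.83% of weak and 5.27% of comparison positions the neighbours themselves were at most 240 bp apart, so that the position lay between 2 others spaced little wider than a usual nucleosome and linker (difference 2.56, SD 0.524, 22 of 22 autosomes). This too was not particular to the weak set. The share was 7.57% for comparison positions before matching, 7.30% for all positions, 8.14% at 6 steps and 8.67% at 7 steps. The 41848 weak positions that overlapped both neighbours had 41.3% GC, more than the 36.8% of all weak positions, and local scores of 15.6.

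Isolation was more frequent as well. No other midpoint lay within 250 bp of 8.64% of weak and 6.91% of GC-matched comparison positions (difference 1.73, SD 0.342, 22 of 22 autosomes). At 6 steps, just above the limit, the share was 8.59%, so that isolation was not particular to the weak set. The 40760 isolated weak positions had 34.1% GC, and 41.6% of them were intergenic. Isolated positions outside the weak set were not described in the same way. The median distance between the 2 neighbours was 400 bp for weak and 395 bp for comparison positions, within the spread between autosomes (SD 5.33), with percentiles 10 and 90 at 250 and 720 bp for weak and 270 and 675 bp for comparison positions. Within the weak set, that median was longer at the lowest scores: it was 460 bp at a score of 0, 430 bp at 2 steps and 390 bp at 5 steps. The share that overlapped a neighbour was 18.9% at 0, 13.4% at 1 step, 22.8% at 2 steps, 36.7% at 4 steps and 45.1% at 5 steps.

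The sides of weak positions were not equal, although the genome has no preferred strand. The neighbour at higher coordinates overlapped 27.8% of weak positions and the neighbour at lower coordinates 23.5% (difference 4.23, SD 0.673, 22 of 22 autosomes). For comparison positions, here without GC matching, the shares were 26.5% and 26.9% (difference -0.359, SD 0.115). The neighbour at higher coordinates also had the higher mean score, 14.3 against 14.02 (difference 0.255, SD 0.0828, 21 of 22 autosomes). Median distances were 180 bp to the right and 190 bp to the left. Among weak positions on the 10-bp grid, overlap was 29.6% to the right and 24.8% to the left, and among those off the grid 21.6% and 19.1%. The same asymmetry stood in the base composition. At 100 to 110 bp from the midpoint, GC content was 38.4% to the right and 37.4% to the left of weak positions. It was 38.2% on both sides of GC-matched comparison positions. At 450 to 460 bp the sides of weak positions had 39.0% each. The order in which the authors' program placed positions is not given in the sources used here, and its part in the asymmetry was not tested.

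Weak positions were spread over gene features with small shifts, by 0.40 of the interval and GENCODE release 44. Intergenic DNA more than 2000 bp from any gene held 35.5% of weak and 33.0% of GC-matched comparison positions (log2 ratio 0.10, SD 0.0361, 22 of 22 autosomes). Introns held 59.7% and 62.2% (log2 ratio -0.06, SD 0.0193, 22 of 22 autosomes). Coding exons held 0.898% and 1.01% (log2 ratio -0.17, SD 0.109, 22 of 22 autosomes) and 3′ untranslated regions 1.64% and 1.81% (log2 ratio -0.14, SD 0.0979, 20 of 22 autosomes). Promoters, up to 2000 bp before a gene, held 3.44% and 3.32%, and 5′ untranslated regions 0.244% and 0.237%, both within the spread between autosomes. Within 1000 bp of the TSS of a protein-coding gene lay 0.838% of weak and 0.781% of comparison positions (log2 ratio 0.10, SD 0.134, 16 of 22 autosomes), also within the spread. That share was 1.20% for comparison positions before matching on GC content and 1.40% for all positions, since DNA near TSSs is rich in G and C. Counting every annotated transcript start instead turned the sign of the log2 ratio, to -0.08 (SD 0.0416), so that no direction is given for the 1000-bp window as a whole.

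Within that window, the share of weak positions exceeded the share expected from GC content most clearly just upstream of the start. Their number was not higher there, with 147 in the 50 bp before the TSS and 153 at 900 to 850 bp upstream. Around 19111 TSSs of protein-coding genes, 516 of the 15623 positions with midpoints from 150 bp before to 50 bp after the TSS were weak, 3.30% against 1.80% expected from GC content. Over all autosomal positions 3.79% were weak, so that the excess exists only relative to GC content. The ratio was 1.84, with a mean over autosomes of 1.85 ± 0.396 (SD) and values above 1 in 22 of 22. This is the region that is often free of nucleosomes at active promoters. Positions there had a mean score of 17.9, against 26.6 at 100 to 150 bp downstream, where the first nucleosome of the gene body lies. For scale, the neighbours of all autosomal positions had a mean score of 15.8. At 100 to 150 bp, 72 of 6826 positions were weak, 1.05% against 1.60% expected, a ratio of 0.660 (mean over autosomes 0.682 ± 0.414) with 16 of 22 autosomes below 1. The ratio alternated further downstream, with 1.22 at 200 to 300 bp, 0.829 at 300 to 400 bp and 1.26 at 400 to 500 bp. It was 0.963 from 500 to 150 bp upstream, where 11 autosomes lay on either side of 1. On the 10-bp grid alone the ratio was 1.91 just upstream and 0.645 at 100 to 150 bp.

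**Figure D4:**
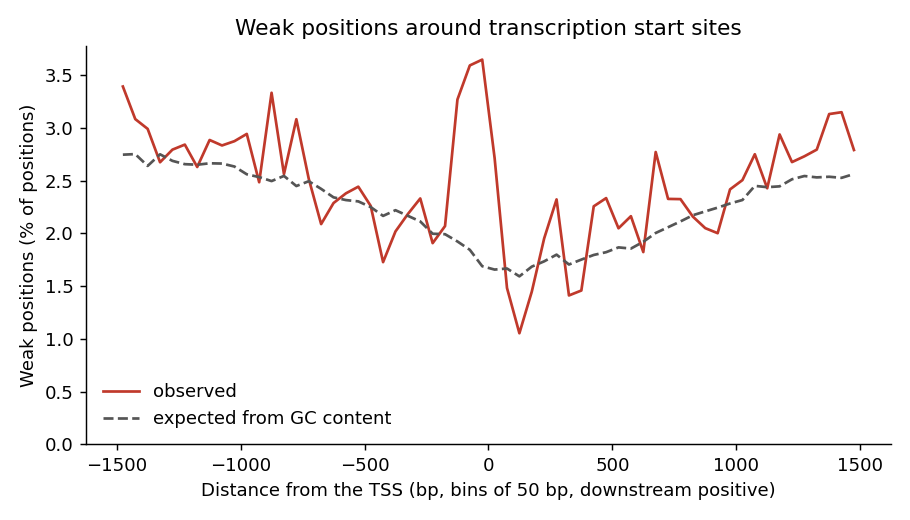
Percentage of positions that were weak (red) and the percentage expected from their GC content (dashed grey) by distance from the TSS of protein-coding genes, in bins of 50 bp with downstream positive. The observed share peaks at 3.65% in the 50 bp before the TSS, where 1.69% is expected, and dips to 1.05% at 100 to 150 bp downstream.

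The excess over the share expected from GC content was present upstream of the TSS at GC-rich and at GC-poor starts. The observed shares were below the 3.79% of all autosomal positions at both. TSSs were split at the median GC content of the 1000 bp around them, 59.3%. At the 9620 GC-rich starts, 275 of 7432 positions from 150 bp before to 50 bp after the TSS were weak, 3.70% against 1.52% expected, a ratio of 2.43 (mean over autosomes 2.48 ± 0.780, 22 of 22 above 1). At the 9491 GC-poor starts 243 of 8222 were weak, 2.96% against 2.04% expected, a ratio of 1.45 (mean over autosomes 1.40 ± 0.496, 19 of 22 above 1). At 100 to 150 bp downstream the ratios were 0.525 and 0.808. Taking for each TSS the nearest position on either side, 2.97% of the upstream positions were weak against 1.95% expected, and 1.58% of the downstream positions against 1.70% expected.

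Matches to the CTCF consensus motif showed the widest swings. The consensus, searched on both strands by 12 letters with some open choices, had 10542 matches on the autosomes, none of which was checked for binding. Within 40 bp of a motif centre 166 of 3251 positions were weak, 5.11% against 1.65% expected from GC content. The ratio was 3.09, with a mean over autosomes of 3.19 ± 1.44 (SD) and values above 1 in 22 of 22. At 140 to 180 bp on either side 74 of 9478 positions were weak, 0.781% against 3.04% expected, a ratio of 0.257 (mean over autosomes 0.236 ± 0.165, 22 of 22 below 1). The second dip, at 320 to 380 bp, had a ratio of 0.553 (mean over autosomes 0.549 ± 0.199, 22 of 22 below 1). Between the dips, at 220 to 280 bp, the ratio was 1.29, with 13 of 22 autosomes above 1, and at 800 to 1000 bp it was 0.943. Mean scores ran the opposite way, with 16.1 over the motif, 25.8 at 140 to 180 bp and 20.1 at 320 to 380 bp. On the 10-bp grid alone the ratios were 3.46 over the motif, 0.259 in the first dip and 0.594 in the second. A whole match lay inside 217 weak positions, which is 0.0460% of weak positions, 0.0166% of GC-matched comparison positions and 0.0380% of all positions (difference from the comparison 0.0294, SD 0.0331, 22 of 22 autosomes).

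**Figure D5:**
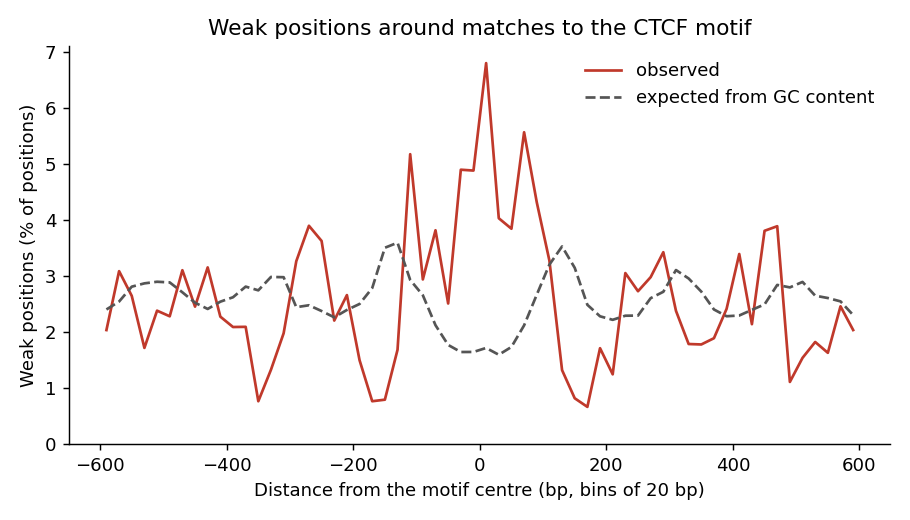
Percentage of positions that were weak (red) and the percentage expected from their GC content (dashed grey) by distance from matches to the CTCF consensus motif, in bins of 20 bp. The observed share reaches 6.80% at the motif, falls to 0.667% at 160 to 180 bp and shows second dips at 320 to 380 bp on both sides.

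Genes varied in their share of weak positions relative to that expected from GC content. Over the 7660 protein-coding genes with at least 200 positions, the median ratio of observed to expected was 0.907, with 0.568 and 1.27 as percentiles 10 and 90. The 10 highest ratios were those of LSP1 (3.72), an actin-binding protein of leukocytes, CASTOR2 (3.11), of the family of arginine sensors for mTORC1, MAEA (2.64), a subunit of the CTLH ubiquitin ligase, SHANK3 (2.49), a scaffold of the synapse, DMBT1 (2.47), a secreted glycoprotein, ADGRL1 (2.41), an adhesion receptor, SQOR (2.39), an enzyme of sulfide oxidation, PCDHGC3 (2.39), a protocadherin, PLD5P1 (2.39) and ENSG00000256566 (2.37). They rested on few positions in most cases. LSP1, on chromosome 11 from 1850904 to 1892267, had 9 weak of 224 positions where 2.42 were expected. PLD5P1, on chromosome 10 from 38094368 to 38360098, had 51 weak of 659 where 21.4 were expected, at a mean score of 11.5 and 2.48 positions per kb. 34 of these genes had no weak position at all, and the first 10 of them in alphabetical order were ADAMTSL2, ADGRB2, CAND2, CAPN5, CHID1, CPNE2, ENSG00000285245, ENSG00000285528, FAM83G and FLT4, the last of which encodes a receptor of lymphatic vessels. The expected numbers of these 10 ran from 2.30 for ADGRB2 to 4.74 for ENSG00000285528. Since they were picked for a count of 0 among 7660 genes, these numbers cannot show a depletion in any of them.

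Gene families were read as sums over their members, with exact Poisson 95% intervals that cover counting error only. Over 6417726 positions in protein-coding genes 3.42% were weak, a ratio of 0.944 to the share expected from GC content. Family ratios over gene bodies therefore stand beside 0.944 as well as beside 1. Zinc finger genes of chromosome 19 had 1364 weak positions where 1030 were expected, a ratio of 1.32 (1.25 to 1.40). Of the 248 with at least 20 positions, 165 had a ratio above 1, with a median of 1.27 and ZNF66 highest at 3.77. Chromosome 19 as a whole had the highest ratio of all autosomes, 1.17, ahead of chromosome 21 with 1.12 and with chromosome 1 lowest at 0.960. Histone genes had a ratio of 1.41 (0.990 to 1.94; 37 weak, 26.3 expected), and olfactory receptor genes 1.10 (1.00 to 1.20; 487 weak). Keratins had 0.751 (0.546 to 1.01; 44 weak) and liver genes 0.803 (0.568 to 1.10; 38 weak). Neuronal genes, with 3915 weak positions, had a ratio of 0.999 (0.968 to 1.03), and the protocadherins, proteasome and HOX genes had 0.962, 0.977 and 0.920, with intervals that included 1. The neuronal interval lay above 0.944, and the intervals of the protocadherins, proteasome and HOX genes included it.

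Ribosomal protein genes, which are transcribed at high levels in dividing cells, had a ratio of 1.20 (1.00 to 1.43; 125 weak, 104 expected) over the gene bodies. Within 1000 bp of their TSSs 29 of 770 positions (3.77%) were weak where 13.6 were expected, a ratio of 2.13 (1.43 to 3.06). Over all autosomal positions 3.79% were weak, so that this excess also exists only relative to GC content. No ratio over all genes for the same window was set beside the family ratios. The 29 weak positions belonged to 27 genes, and 13 of the 29 lay upstream of the TSS. Of the 29, 5 had midpoints from 150 bp before to 50 bp after the start: RPL9 at -20.5 bp, RPL17 at -73.5, RPL34 at -77.5, RPL3 at -82.5 and RPL37 at -129.5 bp. No matching share over all genes was set beside the counts of 13 and 5, so neither is read as an excess. All 5 had a score of 6.17 and lay below both neighbours, as did 76.5% and 92.7% of all weak positions, respectively. Their neighbours ranged from 8.64 and 12.3 at RPL3 to 46.9 and 30.8 at RPL9. The lowest scores among the 29 were 3.70, in RPL19 and RPL18.

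Genes of pluripotency had 64 weak positions in their bodies where 61.2 were expected, a ratio of 1.05 (0.805 to 1.33). The largest share of these, 36, lay in LIN28B, which encodes an inhibitor of let-7 processing and had 32.2 expected. POU5F1 and NANOG, core transcription factors of the pluripotent state, had none among 87 and 44 positions, with 1.38 expected in each. SOX2, their partner, had 1 among 13. Within 1000 bp of the TSSs of the 16 genes, 9 of 179 positions (5.03%) were weak where 3.44 were expected, a ratio of 2.62 (1.20 to 4.97). Over all autosomal positions 3.79% were weak. The 9 positions belonged to DPPA4 (3), ZFP42 (2), L1TD1, POU5F1, LIN28B and GDF3 (1 each). The weak position of L1TD1, which encodes an RNA-binding protein of stem cells, lay across the start itself (chr1:62194782-62194921, score 6.17, midpoint at 2.50 bp) with neighbours of 28.4 and 7.40. The weak position upstream of POU5F1 lay at -970.5 bp.

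Cardiac genes, which are not active in undifferentiated cells, had 268 weak positions where 270 were expected, a ratio of 0.994 (0.879 to 1.12). The giant genes among them carried most, with 148 in RYR2, the calcium release channel, against 159 expected, and 72 in TTN, the sarcomeric spring, against 67.6 expected. Within 1000 bp of the 14 TSSs 5 of 157 positions (3.18%) were weak, a ratio of 2.03 (0.660 to 4.74), in TNNT2, ACTN2, TTN, MYL7 and GATA4. The intervals of the cardiac and pluripotency ratios overlapped at the TSSs. The pluripotency, ribosomal protein and cardiac ratios were the highest of the 12 families within 1000 bp of the TSS. The others were 1.26 for histones, 1.22 for zinc finger genes of chromosome 19, 1.19 for the proteasome, 1.12 for HOX, 1.08 for olfactory receptors, 0.840 for liver, 0.830 for keratins, 0.742 for neuronal genes and 0.611 for protocadherins, each with an interval that included 1.

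Along the chromosomes, 26200 windows of 100 kb with at least 200 positions had a median ratio of 0.978, with 0.651 and 1.36 as percentiles 10 and 90, and 221 windows had a ratio above 2. The 3 highest held no protein-coding gene. They began at 18700001 on chromosome 13 (27 weak, 4.79 expected, ratio 5.64), at 65400001 on chromosome 9 (17 weak, 3.78 expected, ratio 4.50) and at 22300001 on chromosome 17 (30 weak, 7.22 expected, ratio 4.15). They had 2.23, 2.83 and 3.01 positions per kb, mean scores of 10.8 to 11.9, and repeated central sequences in 1.79%, 0.353% and 2.33% of positions. The 3 lowest each had 1 weak position, where 9.80, 9.61 and 8.39 were expected, and lay on chromosomes 22 (with RASD2), 12 (with TRPV4 and GLTP) and 9 (with RALGDS, GBGT1 and ENSG00000285245). These had 5.54 to 5.57 positions per kb and mean scores of 20.6 to 21.6. Over the autosomes, the share of weak positions ran from 2.28% on chromosome 22 to 4.72% on chromosome 4. GC content gave nearly the same range, with 2.26% and 4.55% expected.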

How the data were processed

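MNase-seq was made from hiPSCs digested at 5 MNase amounts, with 10 runs in all and 1 library per amount. The authors used GRCh38 as the genome of the nucMACC workflow (version 3.1) and left out regions of a blacklist, and the deposited score of each position is a signal height whose scaling is not given in the sources used here. Trimmomatic 0.40 is named in the submitters' processing notes. The paper's methods say that the 50-bp runs were not pursued downstream, and do not name the runs that were pooled or the program that placed the positions. Reads per position are unknown, so no sampling error of a score is given.

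Weak positions (score below 7.0) and comparison positions (12 to 18) were taken from the list without another filter, on autosomes. Sequence came from an hg38 reference whose chromosome lengths hold every position, and features from GENCODE release 44, where the study used release 48. Each GC-matched value weights comparison positions by the number of G and C bases. Members, gene lists and comparisons were chosen with earlier results of these data known. Named genes were the 10 highest and 10 lowest ratios among protein-coding genes with at least 200 positions, and the members of the pluripotency and cardiac lists with a weak position flanking the TSS (L1TD1). Ties at 0 were taken in alphabetical order. Sequences at the other score values are not reported here. Other genes of the families and lists, and those in runs, were named after their values were seen. Ribosomal protein, histone, keratin and other families were described as sums. Poisson intervals and autosome SDs do not measure variation between cultures. Calculations used Python 3.11.15, NumPy 2.4.6, pandas 2.3.3, SciPy 1.17.1, Numba 0.67.0 and matplotlib 3.10.9, and were tested on simulated data and, for overlaps, against bedtools 2.31.1. Alternatives changed the score limits, the matching, the positions used and the definitions of features and distances.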

Additional observations from a re-analysis of the deposited data

How the results depend on the processing

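For 9 results, 83 alternatives were computed: 59 moved by less than the SD over autosomes, 24 by more, and 0 turned the sign of a difference that exceeded its spread. With weak positions below a score of 6, the GC difference was -5.26, the span difference 20.0 bp and the isolation difference 2.62. Below 8, the neighbour score difference was -0.470, the span -10.0 bp, the weak neighbour difference 2.86 and repeated sequence 0.236. With comparison scores of 10 to 20, the GC difference was -6.54. Without GC matching, differences were -1.40 (neighbour score), -0.855 (local score), 25 bp (span), 3.67 (isolation) and 1.49 (weak neighbour), with a log2 ratio of -0.52 near the TSS. Matching also on the GC content of 1000 bp gave a span of -3.00 bp and isolation of 1.38, and matching also on local score gave -0.217 for neighbour score and -2.00 bp for span. Isolation was 1.38 within 200 bp and 1.14 within 300 bp. Every transcript start gave a log2 ratio of -0.0797 near the TSS, and the central 50 bases 1.40. On the 10-bp grid alone, an alternative chosen after seeing the data, the GC difference was -6.32 and the span -10.0 bp. The span difference is therefore not given a direction. The cause of these moves was not tested.

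No paired analysis was possible because a single list pools the libraries and carries no replicate number. Nor was any library left out, since none has a column of its own. The share of bases in annotated repeats, and the limit to positions with few masked bases, were not run because the reference used here marks no repeats. Scores of a few steps and the unknown reads behind a step limit how finely the weakest positions are ordered.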
